A study of Mus musculus with 20 samples.

Results

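The prostates of 2 inbred mouse strains, C57BL/6J and 129X1/SvJ, were compared on 8 cDNA microarrays, which are part of a series of 20 arrays from 5 strains. Each strain was represented by 4 pools of amplified RNA. A pool held prostate RNA from 3 males of 8 to 9 weeks, with the dorsal, lateral, ventral and anterior lobes combined in equal amounts, so that 12 mice of each strain were measured and lobes could not be told apart. The labels give no transgene or treatment for any of them. Every pool was hybridised with a common reference made from the RNA of all samples of the 5 strains (the other strains were FVB/NJ, BALB/c and DBA/2), and each strain had 2 pools in the Cy3 channel and 2 in the Cy5 channel. The members of the comparison are all 8 arrays of these strains, chosen by the strain in the labels and not by any measured value.

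The mouse prostate is a set of paired glands whose luminal epithelial cells make proteins and polyamines for the seminal fluid under the control of androgens. Both strains belong to families widely used as backgrounds for genetically modified mice, and many lines carry a mixture of such backgrounds. A difference between such strains in a normal gland is therefore a baseline on which engineered changes are read. In whole tissue, a difference in RNA level cannot be told apart from a difference in the number of cells that make the RNA.

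The unit throughout is the log2 ratio of a pool to the common reference, so that 0 is the reference level, and a strain difference is C57BL/6J minus 129X1/SvJ. Of 11159 array elements tested with limma, 145 (1.30%) had an adjusted p under 0.05 and are called. Of these, 78 (0.699% of those tested) were higher in C57BL/6J and 67 (0.600%) were higher in 129X1/SvJ. The called differences ran from 1.57-fold to 9.25-fold in the first direction, with a median of 2.49-fold, and from 1.63-fold to 17.5-fold in the second, with a median of 2.26-fold. The median difference over all elements tested was 0.02. Among 5820 genes represented by 1 element each, 81 (1.39%) were called, 39 (0.670%) higher in C57BL/6J and 42 (0.722%) higher in 129X1/SvJ. All 145 called elements had no overlap between the measured pools of one strain and those of the other. Of all elements tested, 980 (8.78%) had this property. The count of 145 was 228 without pool 4 of 129X1/SvJ, and it was 73, 69, 80 and 79 without pool 1, 2, 3 or 4 of C57BL/6J and 88 without pool 2 of 129X1/SvJ.

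**Figure D1:**
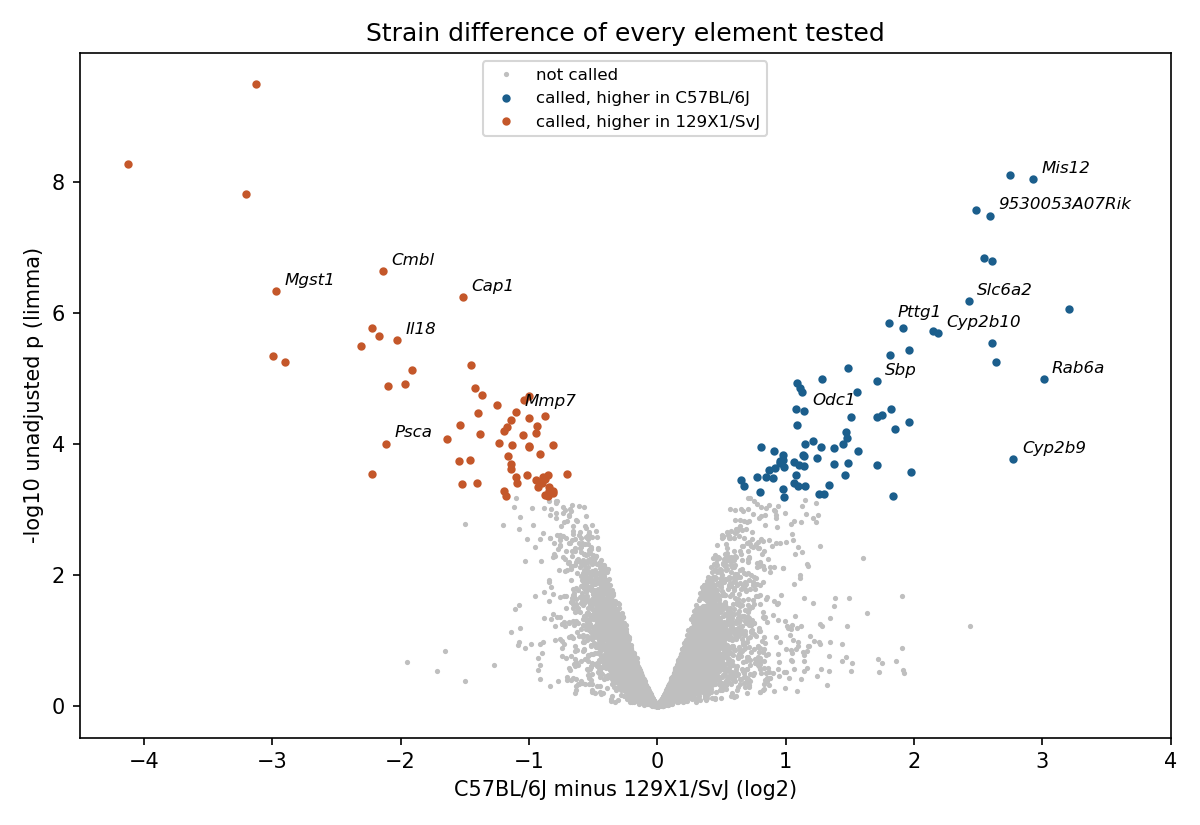
Strain difference (x axis, log2, C57BL/6J minus 129X1/SvJ) against the unadjusted p of limma (y axis, -log10) for the 11159 elements tested. The 78 called elements higher in C57BL/6J are blue, the 67 higher in 129X1/SvJ are orange, and names stand at the element that represents the gene.

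The pools of 129X1/SvJ were more variable than those of C57BL/6J. The median absolute deviation of the log2 ratios on an array was 0.22, 0.28, 0.19 and 0.22 in the 4 C57BL/6J pools and 0.29, 0.30, 0.32 and 0.44 in the 4 129X1/SvJ pools. Every 129X1/SvJ array was thus wider than every C57BL/6J array, with a difference of 0.11 between the strain means (exact permutation test, two-sided p = 0.0286, the smallest that 4 against 4 arrays can give). This p concerns the spread of ratios within an array, which also holds the distance of a strain from the reference. The variation between pools, given next, was not tested. The median SD of an element between pools was 0.18 in C57BL/6J and 0.30 in 129X1/SvJ, and 77.8% of elements had the larger SD in 129X1/SvJ. Pool 4 of 129X1/SvJ lay farthest from the median of its strain in 40.2% of elements, against 19.0% to 21.0% for each of the other pools, and without it the median SD of the strain was 0.23. Missing values were few, from 2.61% to 2.77% of the elements on the C57BL/6J arrays and from 2.71% to 4.80% on the 129X1/SvJ arrays.

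**Figure D2:**
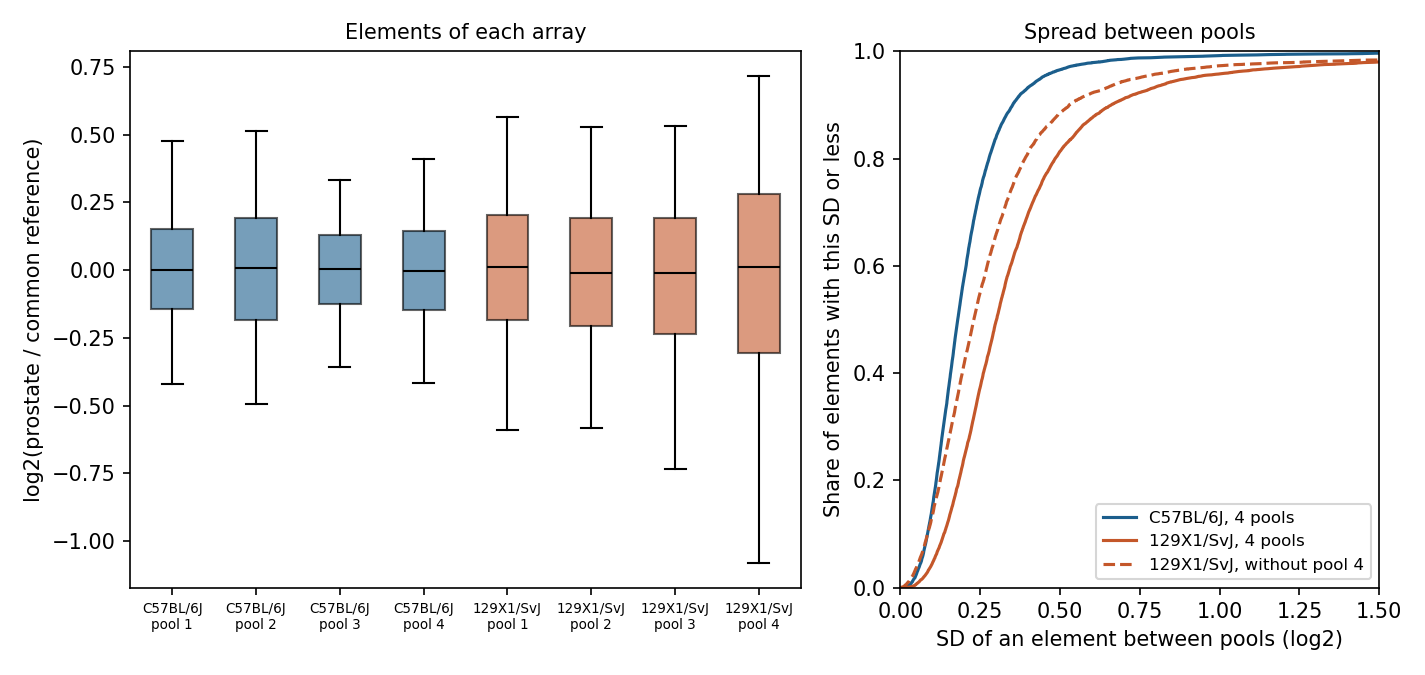
Left, log2 ratio of the elements tested on each of the 8 arrays (boxes, quartiles with the median; whiskers, percentiles 5 to 95). Right, cumulative share of elements (y axis) against the SD between pools (x axis, log2), in which the 129X1/SvJ curve lies to the right of the C57BL/6J curve and moves closer to it without pool 4.

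Several of the largest differences among named genes were found in enzymes that handle drugs, steroids and oxidants. Cyp2b9 and Cyp2b10, cytochrome P450 enzymes that oxidise steroids and foreign compounds, were both higher in C57BL/6J. Mgst1, a membrane-bound glutathione transferase that protects against lipid peroxides, and Cmbl, a hydrolase that activates some prodrugs, were both higher in 129X1/SvJ. These 4 genes were the called members of lists of 20 genes of drug and steroid metabolism (3 called) and 28 genes of glutathione and oxidant defence (1 called). For comparison, 1.39% of all named genes were called. The median difference was 0.06 in the first list and -0.18 in the second.

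Cyp2b9 read 0.14, 0.80, 0.57 and -0.15 in C57BL/6J pools 1 to 4 and -3.35, -3.01, -2.43 and -0.95 in 129X1/SvJ pools 1 to 4. All C57BL/6J pools lay near the reference level or above it, while 129X1/SvJ pools were all below it, pool 4 least. The strain difference was 2.77 ± 0.47 (SE; 6.84-fold, adjusted p = 0.0209 by limma), and 3.27 without that pool (adjusted p = 0.000541). Without any 1 pool of C57BL/6J, or without pool 2 or 3 of 129X1/SvJ, Cyp2b9 was not called (adjusted p = 0.0506 to 0.0878). Cyp2b10 read 0.02, 0.08, 0.22 and 0.24 in C57BL/6J and -2.16, -2.43, -2.20 and -1.39 in 129X1/SvJ, where pool 4 was again the highest. Its difference was 2.19 ± 0.22 (4.55-fold, adjusted p = 0.00119).

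Both genes lie next to each other among the genes tested, and the 250 bases before their transcription start sites are shown because the 2 genes differed in the same direction. The sequences come from RefSeq on GRCm38.p6, plus strand, at chr7:26173159-26173408 for Cyp2b9 and chr7:25897408-25897657 for Cyp2b10, and the capitals mark the longest run that they share, of 12 bases.
Cyp2b9: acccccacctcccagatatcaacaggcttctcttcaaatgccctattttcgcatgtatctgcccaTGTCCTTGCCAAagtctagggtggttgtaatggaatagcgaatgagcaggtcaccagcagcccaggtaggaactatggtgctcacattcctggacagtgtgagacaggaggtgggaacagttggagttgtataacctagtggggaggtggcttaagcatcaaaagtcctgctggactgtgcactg
Cyp2b10: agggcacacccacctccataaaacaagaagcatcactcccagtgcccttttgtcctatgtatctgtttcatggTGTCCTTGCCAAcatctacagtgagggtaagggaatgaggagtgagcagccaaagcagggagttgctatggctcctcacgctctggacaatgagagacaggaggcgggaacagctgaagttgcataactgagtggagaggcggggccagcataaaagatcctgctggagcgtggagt
Both sequences are from the same genome build, so they do not compare the strains. In a global alignment, 187 of 262 positions (71.4%) were identical. On either strand, TATAAA was found in neither sequence and in 12.4% of 32851 promoter windows of the same length. CATAAA was found at 2 places in Cyp2b10, at none in Cyp2b9, and in 10.8% of the windows. Cyp2b9 and Cyp2b10 are closely related in their coding sequence too, and a cDNA element can bind transcripts of a related gene, so it is uncertain how far the values of the pair are separate.

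Mgst1 read -1.39, -2.17, -2.40 and -2.50 in the C57BL/6J pools and 0.71, 0.60, 1.16 and 0.94 in the 129X1/SvJ pools. The gap between the strains was wider than the range within either of them. The difference was -2.97 ± 0.25 (7.83-fold higher in 129X1/SvJ, adjusted p = 0.000467), and 2 further elements of Mgst1 were called as well, with differences of -3.13 and -3.20. Cmbl read -0.94, -0.76, -0.75 and -0.83 in C57BL/6J and 1.13, 1.23, 1.15 and 1.76 in 129X1/SvJ, a difference of -2.14 ± 0.16 (4.40-fold, adjusted p = 0.000254). Both strains were tight for Cmbl apart from pool 4 of 129X1/SvJ, the highest. In the gene order of RefSeq GRCm38.p6, the nearest tested gene on one side of Mgst1 was Pik3c2g, a class II phosphoinositide 3-kinase, which was also higher in 129X1/SvJ. It read -1.30, -1.19, -1.20 and -1.85 against 1.29, 0.31, 0.30 and 0.95, a difference of -2.10 ± 0.26 (adjusted p = 0.0039).

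**Figure D3:**
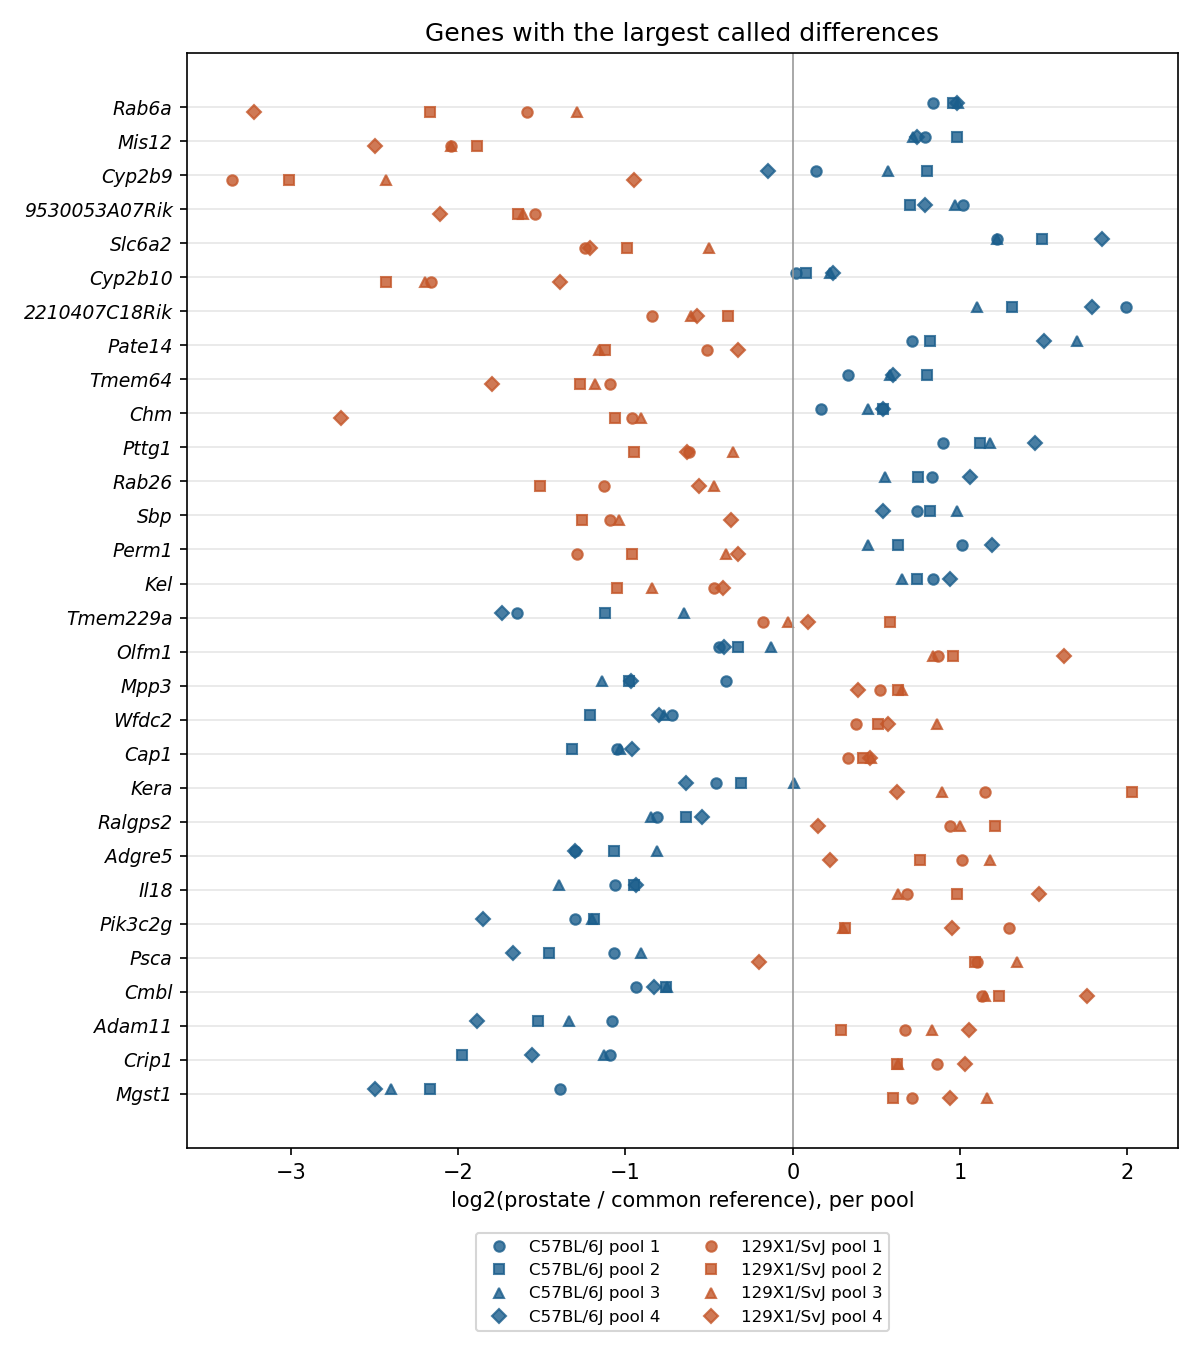
Log2 ratio to the common reference (x axis) in each of the 8 pools for the 15 named genes with the largest called difference in either direction (y axis, in order of the difference). Blue symbols are C57BL/6J pools, orange symbols are 129X1/SvJ pools, and the symbol shape gives the pool number. In no gene do the colours overlap, because only genes without overlap of the pools were chosen.

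Proteins made for the secretion differed in both directions. Of 32 genes in a list of prostate secretory proteins, 6 were called higher in C57BL/6J and 4 higher in 129X1/SvJ, or 31.2% of the list beside 1.39% of all named genes. The list was chosen with earlier results of these data known, so this share is a description only. Without pool 4 of 129X1/SvJ, 13 of the 32 were called, where 2.18% of all named genes were. Its median difference was 0.15, beside 0.00 over all named genes. Higher in C57BL/6J were 9530053A07Rik, Pate14 (a member of the prostate and testis expressed family), Sbp (the androgen-dependent spermine-binding protein of prostate fluid), Spink8 (a Kazal-type inhibitor of serine proteases), Smgc and Rnase1 (a secreted ribonuclease). Higher in 129X1/SvJ were Psca (prostate stem cell antigen, a lipid-anchored surface protein), Wfdc2 (a secreted protein with whey acidic protein domains), 9530003J23Rik and Rnase4 (another secreted ribonuclease).

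The element for 9530053A07Rik read 1.02, 0.70, 0.97 and 0.79 in C57BL/6J and -1.54, -1.64, -1.61 and -2.11 in 129X1/SvJ, a difference of 2.59 ± 0.16 (6.04-fold, adjusted p = 5.2e-05). The other 3 elements of 9530053A07Rik were not called, with differences of 0.07, 1.37 and 1.38. Pate14 read 0.71, 0.82, 1.70 and 1.5 against -0.51, -1.12, -1.16 and -0.33, a difference of 1.96 ± 0.28 (adjusted p = 0.00907). It was called at its second element too, with a difference of 1.82. Sbp read 0.74, 0.82, 0.98 and 0.54 against -1.09, -1.26, -1.04 and -0.37, a difference of 1.71 ± 0.20 (3.27-fold, adjusted p = 0.00357). All 3 elements of Sbp were called, and the other two had differences of 1.96 and 1.98. Spink8 was below the reference in both strains, at -0.26, -0.59, -0.42 and -0.45 in C57BL/6J and -2.18, -1.91, -2.42 and -1.13 in 129X1/SvJ (difference 1.48 ± 0.25, adjusted p = 0.0224). Smgc and Rnase1 had smaller differences, of 1.24 and 1.21.

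Psca read -1.07, -1.46, -0.91 and -1.67 in the C57BL/6J pools and 1.10, 1.09, 1.34 and -0.20 in the 129X1/SvJ pools. Pool 4 of 129X1/SvJ again stood apart, on the side of C57BL/6J. The difference was -2.11 ± 0.33 (4.32-fold higher in 129X1/SvJ, adjusted p = 0.0149), and -2.46 without that pool (adjusted p = 0.000407). The other 3 elements of Psca were called, with differences of -2.31, -2.90 and -3.0. At 2 of them pool 4 of 129X1/SvJ read 1.42 and 1.14, near the other pools of its strain. Wfdc2 read -0.72, -1.21, -0.77 and -0.80 against 0.38, 0.51, 0.86 and 0.57 (difference -1.46 ± 0.16, adjusted p = 0.0024). For 9530003J23Rik the difference was -1.18 ± 0.23 (adjusted p = 0.0476), and -1.46 at a second element. Rnase4 and Rnase1, neighbours among the genes tested, differed in opposite directions. Rnase4 read -0.27, -0.48, -0.58 and -0.39 in C57BL/6J and 0.84, 1.20, 0.49 and 0.30 in 129X1/SvJ (difference -1.14 ± 0.20, adjusted p = 0.025), while Rnase1 read 0.44, 0.11, 0.46 and 0.60 against -0.61, -1.04, -0.47 and -1.13. A second element of Rnase4 had a difference of -1.10 and an adjusted p of 0.05, not under the threshold.

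Of 26 androgen-regulated genes, Sbp and Odc1 (7.69%, beside 1.39% of all named genes) were called, both higher in C57BL/6J, with a list median of 0.08. Odc1 was also the 1 called gene of 7 (14.3%) in polyamine synthesis and turnover, with a median of 0.41. Odc1, ornithine decarboxylase, catalyses the first committed step of polyamine synthesis, and Sbp binds the product spermine. Odc1 read 0.78, 0.82, 0.60 and 0.59 in C57BL/6J and -0.53, -0.68, -0.09 and -0.49 in 129X1/SvJ. The difference was 1.15 ± 0.16 (2.21-fold, adjusted p = 0.00734). Of its 3 further elements, 1 was called (difference 1.13, adjusted p = 0.0189) and 2 were not (differences 0.93 and 1.0, adjusted p = 0.0941 and 0.126). Egf, an epidermal growth factor secreted by the prostate, had a difference of 1.27 ± 0.33 that was not called with all pools (adjusted p = 0.135). Its 129X1/SvJ pool 4 read -2.08 against -0.93, -0.38 and -0.53 in the others, and without that pool the difference was 0.90 (adjusted p = 0.0325).

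In a list of 78 cell cycle and DNA replication genes, Mis12 and Pttg1 were called (2.56%, beside 1.39% of all named genes). Both were higher in C57BL/6J, and the list median was 0.09. Mis12 is part of the kinetochore, and Pttg1 encodes securin, which holds back separase until sister chromatids part. Mis12 read 0.79, 0.98, 0.72 and 0.74 in C57BL/6J and -2.04, -1.89, -2.04 and -2.50 in 129X1/SvJ. Both strains were tight, and the difference of 2.93 ± 0.16 (7.61-fold) had an adjusted p of 2.53e-05. Pttg1 read 0.90, 1.12, 1.18 and 1.45 against -0.62, -0.95, -0.36 and -0.63, a difference of 1.80 ± 0.17 (3.49-fold, adjusted p = 0.00105). Its second element gave 1.43, 1.41, 1.0 and 1.62 against -1.12, -1.15, -1.06 and -1.14, a difference of 2.48. The rest of the list spanned -0.64 for Mcm5 upward with no further call.

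Rab6a, Chm and Rab26, which all concern Rab GTPases and are set together here after their values were seen, had large differences toward C57BL/6J. Rab6a, a small GTPase of the Golgi, read 0.84, 0.96, 0.99 and 0.98 in C57BL/6J and -1.59, -2.17, -1.29 and -3.22 in 129X1/SvJ. Its C57BL/6J pools were nearly equal, and the spread lay in 129X1/SvJ, where pool 4 was the lowest. The difference was 3.01 ± 0.36 (8.04-fold, adjusted p = 0.00342), and 2.64 at a second element that was also called. Chm, which encodes the escort protein that presents Rab GTPases for lipid attachment, had a difference of 1.83 ± 0.37 (adjusted p = 0.0476). Pool 4 of 129X1/SvJ read -2.70 for Chm and the other 3 pools -1.06 to -0.91, and without it the difference was 1.40 (adjusted p = 0.00127). Chm was not called without any 1 of the other 7 pools (adjusted p = 0.0606 to 0.163) or with the dye as a term (adjusted p = 0.056). Rab26, a GTPase of secretory granules, read 0.83, 0.75, 0.55 and 1.06 against -1.13, -1.51, -0.47 and -0.56 (difference 1.71 ± 0.24, adjusted p = 0.00805).

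Other genes with large differences toward C57BL/6J were of mixed kinds. Slc6a2, the noradrenaline transporter of sympathetic nerves, read 1.22, 1.49, 1.22 and 1.85 in C57BL/6J and -1.24, -0.99, -0.50 and -1.21 in 129X1/SvJ (difference 2.43 ± 0.21, 5.38-fold, adjusted p = 0.00057). Of the 9 genes tested in the list of neurons and Schwann cells, Slc6a2 and Olfm1 were called (22.2%, beside 1.39% of all named genes). They differed in opposite directions, and the list median was -0.20. The element for 2210407C18Rik had a difference of 2.15 ± 0.21 (adjusted p = 0.00116). Tmem64, a membrane protein, differed by 1.91 ± 0.18 (adjusted p = 0.0011) and by 1.81 at a second called element. Perm1, a regulator of oxidative metabolism in muscle, differed by 1.57 ± 0.25 (adjusted p = 0.0171), and Kel, a metalloendopeptidase of the Kell blood group, by 1.49 ± 0.17 (adjusted p = 0.00258).

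Differences toward 129X1/SvJ included 2 genes of the actin list. Cap1, which binds actin monomers, read -1.05, -1.32, -1.03 and -0.96 in C57BL/6J and 0.33, 0.42, 0.47 and 0.46 in 129X1/SvJ. Both strains were tight, and the difference was -1.51 ± 0.13 (2.85-fold, adjusted p = 0.000535). Crip1, a small LIM-domain protein, read -1.09, -1.98, -1.13 and -1.56 against 0.86, 0.62, 0.63 and 1.03 (difference -2.23 ± 0.21, 4.68-fold, adjusted p = 0.0011). Cap1 and Crip1 were the 2 called members of 48 actin regulators (4.17%, beside 1.39% of all named genes), whose median was -0.03.

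Il18, an interleukin of the IL-1 family that epithelial cells make, read -1.06, -0.95, -1.40 and -0.94 in C57BL/6J and 0.68, 0.98, 0.63 and 1.47 in 129X1/SvJ (difference -2.03 ± 0.21, 4.08-fold, adjusted p = 0.00139), and its second element gave -1.96. Adgre5, the adhesion receptor CD97 of leukocytes and epithelia, differed by -1.91 ± 0.22 (adjusted p = 0.00265). No member of the 9 genes for macrophages and leukocytes was called, and the pool means of that list were -0.19 to -0.04 in C57BL/6J and -0.23 to 0.22 in 129X1/SvJ. None of 18 interferon-stimulated genes was called either.

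Of 47 proteases and protease inhibitors, Adam11 and Mmp7 were called higher in 129X1/SvJ and Spink8 higher in C57BL/6J. These were 6.38% of the list, beside 1.39% of all named genes. Without pool 4 of 129X1/SvJ, 6 of the 47 were called, where 2.18% of all named genes were. Adam11, a member of the disintegrin and metalloprotease family without catalytic activity, read -1.08, -1.52, -1.34 and -1.89 against 0.67, 0.29, 0.83 and 1.05 (difference -2.17 ± 0.22, 4.49-fold, adjusted p = 0.00124). Mmp7, matrilysin, an epithelial matrix metalloprotease, read -0.11, -0.24, 0.05 and 0.13 against 1.09, 1.32, 0.93 and 0.89. The C57BL/6J pools of Mmp7 thus lay at the reference level and the 129X1/SvJ pools above it, with a difference of -1.10 ± 0.15 (2.14-fold, adjusted p = 0.00735), and -0.93 at a second called element.

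The last 5 genes completed the leading set toward 129X1/SvJ. Ralgps2, an exchange factor for Ral GTPases, differed by -1.53 ± 0.22 (adjusted p = 0.00968), and Kera, the corneal proteoglycan keratocan, by -1.52 ± 0.29 (adjusted p = 0.0356). Mpp3, a scaffold protein of cell junctions, differed by -1.42 ± 0.18 (adjusted p = 0.00394). Olfm1, a secreted glycoprotein best known from neurons, differed by -1.40 ± 0.19 (adjusted p = 0.00735), and Tmem229a by -1.40 ± 0.26 (adjusted p = 0.035). The groups of pools did not overlap for any of these genes, which the choice of the leading genes required.

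Of the marker lists, the luminal epithelium gave 2 calls of 10, Sbp and Epcam, in opposite directions. With all pools, 1.39% of all named genes were called. Epcam, an adhesion molecule of epithelial cells, read -0.39, -0.41, -0.55 and -0.50 in C57BL/6J and 0.38, 0.56, 0.38 and 0.31 in 129X1/SvJ (difference -0.87 ± 0.12, adjusted p = 0.00796). The list as a whole did not separate the strains, with pool means of -0.07 to 0.06 in C57BL/6J and -0.15 to 0.09 in 129X1/SvJ. Igf1, a growth factor made by the stroma, was the 1 call of 21 genes of fibroblasts and matrix (4.76%). Its difference was -0.85 ± 0.16 (adjusted p = 0.0421), and a second element, at -0.76, was not called (adjusted p = 0.135). Tnnc2, a troponin of fast muscle, was the 1 call of 14 skeletal muscle genes (7.14%), with a difference of -0.81 ± 0.16 (adjusted p = 0.0455). No gene was called among 10 of smooth muscle, 8 of endothelium and 6 of adipose tissue. None was called among 2 of basal epithelium, 2 of bladder and urethra or 1 of erythrocytes. Actg2, Kdr and Car3, 1 each of the first 3 lists, were called higher in 129X1/SvJ without its pool 4. Of all named genes, 2.18% were called in that fit. The adipose list had a median of -0.37, with Car3 lowest at -1.5. For 3 of its 6 members the pools did not overlap between the strains, beside 8.78% of all elements tested. The pool means of the list were -0.48 to 0.01 in C57BL/6J and -0.04 to 0.44 in 129X1/SvJ. Both genes for bladder and urethra, Sprr2a1 (1.25) and Upk1b (0.29), were on the C57BL/6J side without a call, and the pool means of the pair did not overlap, at 0.67 to 1.02 against -0.26 to 0.45. The part of these tissues in other differences was not tested. No gene of the epididymis and vas deferens was tested.

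Transcripts of the seminal vesicle, a gland that lies against the prostate, varied widely between pools in both strains. The mean of 10 such genes was -2.15, 0.24, -0.60 and -2.26 in C57BL/6J pools 1 to 4 and -1.43, 0.09, -2.35 and -1.89 in 129X1/SvJ pools 1 to 4. Pool 2 was thus the highest in both strains, and the ranges overlapped almost entirely. The list median was 0.15, and -0.11 without pool 4 of 129X1/SvJ. No gene of the list was called with all pools, and Spink1 was called without that pool. Svs2, a major seminal vesicle secretory protein, read -7.63, -1.58, -4.79 and -5.11 against -5.97, -1.06, -7.31 and -7.21 (difference 0.61 ± 1.53, adjusted p = 0.912).

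Lists of housekeeping function held no call but did not all centre on 0. The 20 tested subunits of NADH dehydrogenase had a median difference of -0.36, with 17 lower in C57BL/6J by their means and 7 at an unadjusted p under 0.05 (a p that 12.3% of all named genes had), and 33 other genes of the respiratory chain and ATP synthase had a median of -0.32, with 30 lower and 11 at that p. The pool means of the NADH dehydrogenase list were -0.28 to -0.11 in C57BL/6J and -0.07 to 0.27 in 129X1/SvJ, where pool 4 was the highest. Cytosolic ribosomal proteins had a median of -0.09 over 46 genes, and the pool means of that list also peaked in pool 4 of 129X1/SvJ, at 0.24 against -0.17 to 0.00 in the other 3. Genes of folding and secretion in the endoplasmic reticulum had a median of 0.14 over 57 genes, with the lowest pool mean, -0.29, in the same pool. Without pool 4 the medians were -0.31 for NADH dehydrogenase, -0.21 for the rest of the respiratory chain, 0.05 for ribosomal proteins, a change of sign, and 0.10 for folding and secretion, where Ero1b was then called. The lists of phosphoinositide kinases, phosphatases and binders (34 genes, median 0.01; Pik3c2g, a called gene of this kind, was not on the list), lipid carriers (17 genes, median 0.05) and MHC and antigen presentation (16 genes, median -0.12) held no call either.

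**Figure D4:**
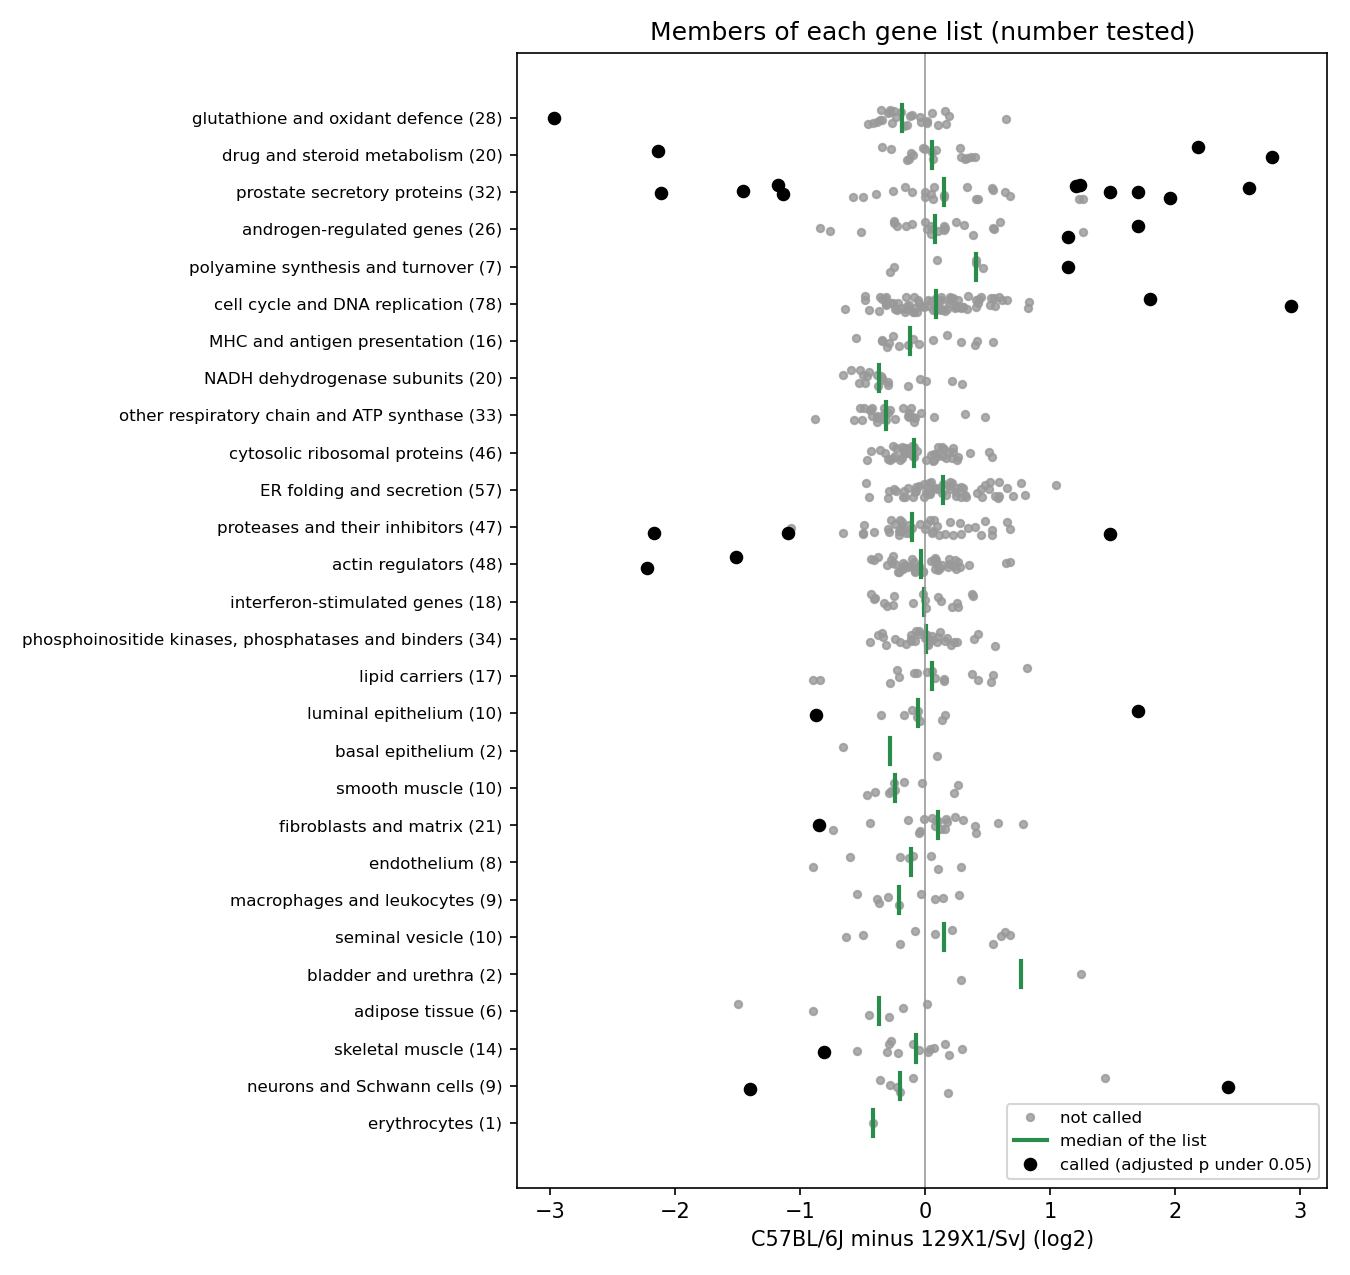
Strain difference (x axis, log2, C57BL/6J minus 129X1/SvJ) of each tested member of the gene lists (y axis, with the number tested). Black points are called, grey points are not, and green bars are list medians. In the secretory list, 10 of 32 members are called (31.2%, beside 1.39% of all named genes). That list was chosen with earlier results of these data known, so the share is a description only. The NADH dehydrogenase list has its median at -0.36 with no call.

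Among further genes on which the study of these strains laid weight, several had no call between this pair. B2m, the light chain of MHC class I, was not called at its representing element (difference -0.55 ± 0.24, adjusted p = 0.447), where C57BL/6J pool 1 read -1.24 and the other 3 pools -0.40 to -0.38. It was called at 2 further elements, with differences of -0.81 and -0.85 (adjusted p = 0.0421 and 0.0383), higher in 129X1/SvJ. H2-Ea, an MHC class II chain, was far below the reference in both strains, at -4.05 to -3.11 in C57BL/6J and -3.61 to -2.89 in 129X1/SvJ (adjusted p = 0.707). The differences of Azgp1 (0.54 ± 0.13, adjusted p = 0.104), Cxcl12 (-0.74 ± 0.18, adjusted p = 0.113) and Fabp5 (-0.84 ± 0.19, adjusted p = 0.072) were not called although their pools did not overlap, and Fabp5 was called without pool 1 of C57BL/6J (adjusted p = 0.0384). The pools of H2-Q1, Clu, Apod, Esr1 and Rbp4 overlapped, with differences between -0.14 and 0.53.

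The 12 pools of the other strains placed the pair in a wider range. For each element, the mean of FVB/NJ, BALB/c and DBA/2 was set on the C57BL/6J or the 129X1/SvJ side of the midpoint of the pair, with no test. Of the 145 called elements, 31 (21.4%) had all 3 other strains on the C57BL/6J side and 27 (18.6%) had all 3 on the 129X1/SvJ side. Over all elements tested the shares were 28.5% and 16.4%. The 21.4% was 11.0% without pool 1 of C57BL/6J, 13.8% without its pool 3 and 32.1% with all 20 arrays in 1 fit. The remaining called elements, 87 of 145, had the other strains divided.

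The leading genes showed each of these arrangements. Cmbl was high in 129X1/SvJ alone, with means of -0.57 in FVB/NJ, -0.94 in BALB/c and -0.42 in DBA/2, all near the -0.82 of C57BL/6J. Cap1 was low in C57BL/6J alone, with means of 0.07, 0.10 and 0.14 in the same order. Pttg1 and Slc6a2 were high in C57BL/6J alone, with the 3 other means at -0.52 to -0.19 for Pttg1 and -1.0 to -0.55 for Slc6a2. Mgst1 divided the strains, at 1.08 in FVB/NJ, on the side of 129X1/SvJ, and -2.18 in BALB/c and -1.60 in DBA/2, on that of C57BL/6J. Its neighbour Pik3c2g had the same arrangement, at 0.84, -1.56 and -0.87. For Mis12, DBA/2 (1.17) stood with C57BL/6J, and FVB/NJ (-1.99) and BALB/c (-2.02) stood with 129X1/SvJ, and Rab6a was placed alike at 1.01, -1.35 and -1.36. Cyp2b9 and Cyp2b10 also shared an order, at 0.97 and 0.84 in FVB/NJ, 0.43 and 0.49 in DBA/2 and -1.03 and -0.89 in BALB/c.

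**Figure D5:**
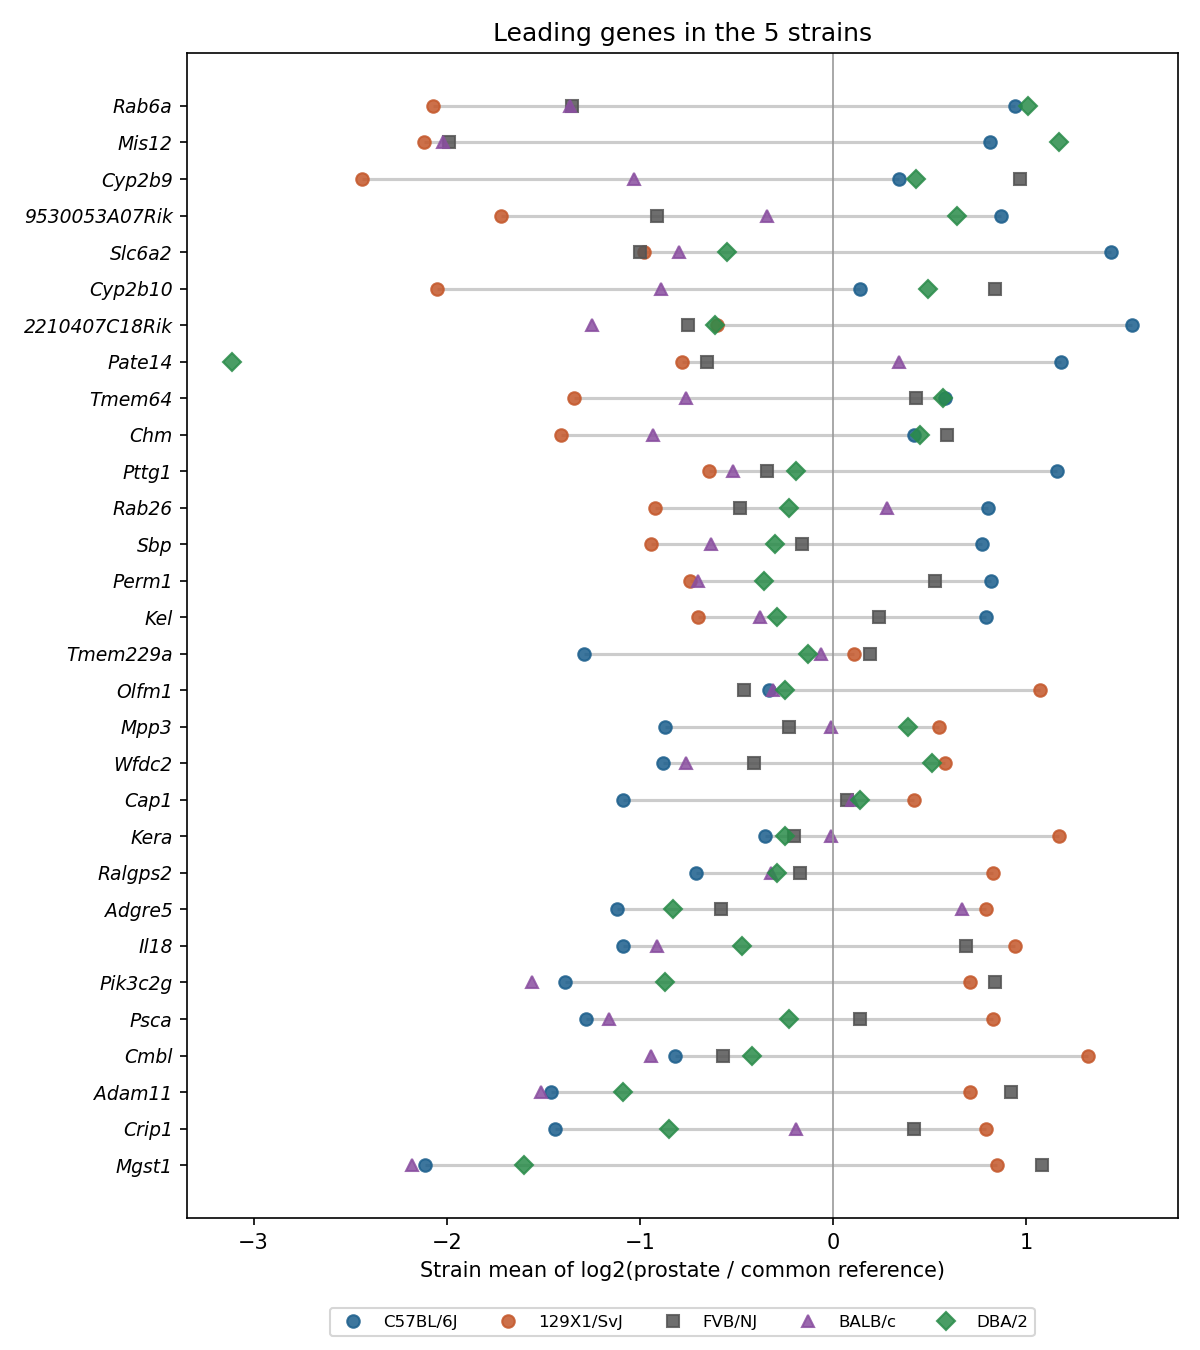
Mean log2 ratio to the common reference (x axis) of 4 pools in each of the 5 strains for the leading named genes (y axis). The grey line joins C57BL/6J and 129X1/SvJ, and the other strains fall at either end, between them or, as DBA/2 for Pate14 at -3.11, outside.

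Both dyes were used equally in each strain, and the difference was also compared between the arrays of either dye. The difference in Cy5 departed from that in Cy3 in 2 of 11136 elements (0.0180%, limma interaction, adjusted p under 0.05), neither with a gene name and neither called between the strains, while 598 had an unadjusted p under 0.05. With 1 pool left out the count ran from 0 to 320, the highest without pool 1 of 129X1/SvJ, and it was 16 without pool 4 and 8 without pool 2 of that strain. For Mgst1 the difference was -2.83 on the Cy3 arrays and -3.11 on the Cy5 arrays, for Mis12 it was 2.73 and 3.12, and for Cap1 it was -1.46 and -1.57. The sign was thus the same in either dye orientation for these genes.

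The 38 called genes picked by the naming rule given below kept the sign of their difference under every alternative processing in which they were measured. Of them, 27 stayed called whichever pool was left out. The other called genes were not checked in every setting. The 27 include Mgst1, Mis12, Cyp2b10, Pttg1, Slc6a2, Sbp, Odc1, Il18, Cap1, Cmbl, Mmp7, Epcam and Rab6a. The other 11, which were Psca, Cyp2b9, Chm, Spink8, Rnase4, Igf1, Perm1, Kera, Tmem229a, Tnnc2 and 9530003J23Rik, lost the call without at least 1 pool, at adjusted p values of 0.0506 to 0.178. Among the 23 called genes with more than 1 element, 31 of 33 further elements had the same sign and 16 were called in it. Some of these further elements may be a second spot of the same clone, which would not be independent evidence.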

How the data were processed

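The authors hybridised amplified RNA pools against a common reference on 2-colour cDNA arrays, subtracted local background, normalized each array by print-tip loess and deposited log2 ratios of sample over reference for 11552 elements. Intensities were not used here, so signal over background is unknown; precision is limited by how many arrays there are. An element was tested if no more than 3 of its 20 values were missing and every strain kept 2 or more (11159; 393 left out). limma 3.58.1 in R 4.3.3 compared the 4 pools of each strain, with Benjamini-Hochberg adjustment over all elements and a call at an adjusted p under 0.05. The pools hold different mice and are biological replicates. Symbols came from the platform annotation, which gave 1 symbol for 8050 elements, several for 672 and none of its rows for 2830. Where a gene had several elements, the most complete one stood for it, with ties going to the lowest number. The text names the 15 genes with the largest called difference in either direction, among those whose pools did not overlap between the strains. It also names genes weighed by the study and up to 4 called members per list in either direction. Smgc and Rnase1 were added with values known. The members, lists and tests were chosen with earlier results of these data known. On simulated data with 11159 elements, the fit found 73 of 100 differences of 1 and 93 of 100 of 2 (log2), with 7.26% false calls. Alternatives covered missing values, scaling, dye, pool number, array weights, SAM and leaving out each pool.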

Additional observations from a re-analysis of the deposited data

Results flagged for a closer look

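Among the named genes, 100 groups of 4 pools were examined, and 5 held a pool far from the other 3; chance gives about 1 in 20 groups. In 129X1/SvJ, pool 4 stood apart for 4 genes. It read -2.70 for Chm (others -1.06 to -0.91), -0.20 for Psca (others 1.09 to 1.34), 1.62 for Olfm1 (others 0.84 to 0.96) and 1.76 for Cmbl (others 1.13 to 1.23). The calls of all 4 genes held without this pool. In C57BL/6J, pool 1 read -1.24 for B2m, against -0.40 to -0.38 in the others. The strain difference departed between the dyes in 2 unnamed elements. Element 9919 differed by -3.13 (Cy5 minus Cy3, adjusted p = 0.032), with 129X1/SvJ pools at 2.02 and 1.90 in Cy5 and -1.45 and -1.70 in Cy3. Element 10809 differed by -5.59 (adjusted p = 0.0342), where a single value of -5.45 stood for 129X1/SvJ in Cy3.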

How the results depend on the processing

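Of the count of 145 called elements, 140 stayed called without pool 4 of 129X1/SvJ, 138 with arrays scaled to the same spread and 132 with the dye as a term. The count was 55 on the Cy3 arrays alone, 0 on the Cy5 arrays alone (fewer arrays in both), 65 by a t-test without moderation, 608 with all 20 arrays in 1 fit and 69 to 228 with 1 pool left out. Pools with the same number did not deviate together (correlations -0.275 to -0.102, and no pool correlated best with its own number). Such pools carried opposite dyes in the compared strains, so these correlations cannot tell whether the numbers pair the samples. With the replicate block 51 elements were called, and 46 with the replicate block and the dye. The share of called elements with all 3 other strains on the C57BL/6J side, 21.4%, was 5.88% and 6.52% in those fits, 32.1% with all arrays in 1 fit and 11.0% to 21.6% with 1 pool left out. The 2 elements with a dye-dependent difference were 1 with scaled arrays and 0 to 320 with 1 pool left out, the highest without pool 1 of 129X1/SvJ. The wider spread of 129X1/SvJ arrays held for the interquartile range (p = 0.0286, exact permutation test). None of the 38 called genes picked by the naming rule changed sign, and the causes of these changes were not tested.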

Other observations

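Of the 145 called elements, 37 had no single gene name. Element 8596 had the largest difference of all, at -3.94, -3.41, -3.03 and -3.71 in C57BL/6J and 0.63, 0.86, 0.63 and 0.30 in 129X1/SvJ (difference -4.13, adjusted p = 2.53e-05), with means of 0.25, -0.08 and 0.02 in FVB/NJ, BALB/c and DBA/2. The next element by number, 8597, represents Tmem229a. It read -1.65, -1.12, -0.65 and -1.74 in C57BL/6J and -0.18, 0.58, -0.03 and 0.09 in 129X1/SvJ. Its means in the other strains were 0.19, -0.06 and -0.13 in the same order. Whether the values of these elements are separate was not tested. Element 7604 was highest in the other direction, at 1.24, 1.19, 1.28 and 0.85 against -1.38, -1.89, -2.09 and -2.92 (difference 3.21, adjusted p = 0.000696).

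In 8 cases a named gene was called at a further element while its representing element was not. Tma7 had a difference of -1.0 at the further element (adjusted p = 0.0048) and -0.22 at the representing one. Gin1 had 1.33 against -0.07, Cfap126 1.15 against 0.47 and Atp7a, a copper transporter, 0.98 against 0.43. Spc25, a kinetochore protein, had 1.10 against 0.79.

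Other called genes, picked after their values were seen, include Atm, the DNA damage kinase (difference 0.68, adjusted p = 0.0373), Kpna2, a nuclear import receptor (0.81, adjusted p = 0.0155), Glb1, a lysosomal galactosidase (0.95, adjusted p = 0.0224) and Asah2, a neutral ceramidase (1.13, adjusted p = 0.00438), higher in C57BL/6J. Higher in 129X1/SvJ were Penk, the enkephalin precursor (-1.04, adjusted p = 0.00531), Bid, a mediator of apoptosis (-1.10, adjusted p = 0.0304), Anxa3, an annexin (-0.94, adjusted p = 0.00983) and Slc30a10, a manganese transporter (-1.20, adjusted p = 0.0421).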
